A study of Mus musculus with 4 samples.

Results

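Guanylin (Guca2a), uroguanylin (Guca2b) and their receptor guanylate cyclase C (Gucy2c) are 3 of the 32285 genes in the count tables, taken by name as the peptides and the receptor of 1 signalling system. All 3 were measured in every library. Single-cell RNA sequencing was done on cells sorted from the small intestine of mice aged 25 weeks, after staining for the surface proteins CD45, CD31, TER-119 and CD326. The mutant mice carry G5081A, a point mutation of TrnA, which is the alanine tRNA gene of the mitochondrial genome, with a mutation load of 77% for mutant 1 and 81% for mutant 2, and the other 2 libraries are wild type. Mutant 1 and wild type 1 form set A. Mutant 2 and wild type 2 form set B, whose titles state male and whose file headers give another Cell Ranger version. No other allele and no treatment is given in the labels of any sample. Whether each library is a different animal is not stated, and the p-values therefore cover no more than how these libraries vary, which may be technical.

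Guanylin and uroguanylin are made as longer precursors and secreted into the gut lumen, where the end of each precursor binds guanylate cyclase C on the apical membrane. The receptor makes cyclic GMP, which through the kinase Prkg2 opens the chloride channel Cftr and slows the sodium-proton exchanger Slc9a3, so that salt and water stay in the lumen. The heat-stable enterotoxin of diarrhoeal bacteria uses the same receptor. In rodents uroguanylin is known as the peptide of the upper small intestine, and guanylin as that of the lower gut and of goblet cells.

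The 2 peptide genes are neighbours. Guca2a (ENSMUSG00000023247) lies at chr4:119637704-119639471 on the plus strand and Guca2b (ENSMUSG00000032978) at chr4:119656607-119658954 on the minus strand, each with 3 exons, in build mm10 with the GENCODE vM21 annotation. They face each other across 17135 bases with 0 annotated genes between. Gucy2c (ENSMUSG00000042638) lies at chr6:136697284-136781765 on the minus strand and has 27 exons. The last 15 codons of each peptide gene, in exon 3, encode the stretch that binds the receptor, and are shown to let the 2 ligands be compared, with cysteine codons in capitals. They span chr4:119639228-119639272 (plus strand) for Guca2a and chr4:119656795-119656839 (minus strand) for Guca2b.
Guca2a coding end: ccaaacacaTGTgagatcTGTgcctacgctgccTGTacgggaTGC
Guca2b coding end: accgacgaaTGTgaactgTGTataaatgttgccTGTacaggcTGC
Counted from the first of these codons, cysteine codons stand at positions 4, 7, 12 and 15 in both genes. Of the 45 bases 29 are identical (64.4%), and 5 of the 15 codons are identical. Disulfide bridges between these cysteines hold both peptides in their active shape.

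Because the genes are neighbours with different patterns over cell types, the 250 bases before each start are shown too, as RefSeq gives them on GRCm38.p6, chr4:119637482-119637731 for Guca2a and chr4:119658946-119659195 for Guca2b. The start here is RefSeq's, and both windows run past the GENCODE starts at 119637704 (Guca2a) and 119658954 (Guca2b). Positions of matches are counted from RefSeq's start. RefSeq's table of these windows held 2 of the 3 members. The GATA motif, spelled AGATAA, was searched on both strands. The same was done for the HNF1 motif, spelled GTTAAT, and for the CDX motif, spelled TTTAT. Capitals mark the matches, which do not overlap one another.
Guca2a promoter: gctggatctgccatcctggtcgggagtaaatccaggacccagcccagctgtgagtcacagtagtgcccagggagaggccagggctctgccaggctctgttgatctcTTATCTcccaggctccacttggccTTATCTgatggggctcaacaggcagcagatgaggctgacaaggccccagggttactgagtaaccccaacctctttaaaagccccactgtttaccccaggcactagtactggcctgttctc
Guca2b promoter: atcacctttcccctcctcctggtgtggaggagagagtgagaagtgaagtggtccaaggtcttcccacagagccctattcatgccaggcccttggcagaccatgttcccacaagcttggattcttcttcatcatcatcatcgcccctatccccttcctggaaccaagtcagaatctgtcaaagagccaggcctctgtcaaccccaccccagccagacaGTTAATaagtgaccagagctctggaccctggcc
The Guca2a window held 2 GATA matches, both read as TTATCT, at -144 and -120 from the start, and the Guca2b window held 1 HNF1 match at -33. A GATA match is present in 9.99% of the 32851 windows in that table and an HNF1 match in 6.43%. A CDX match is present in 37.3% of the windows and was found in neither gene's window, which says only that these letters are not there.

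After filtering, 29796 cells fell into 23 clusters made without the 3 genes, and 8 cell classes were named from marker genes, as goblet-like, Paneth-like and so on, with the ending dropped below. The goblet class held 4263 cells in 2 clusters, the Paneth class 1050 cells, the enterocyte class 6720 cells in 3 clusters and the tuft class 338 cells, and all markers of each of these lists were detected in their own class. A further 6621 cells, in clusters that did not meet the naming rule, stayed unnamed. The 4 tables held 5974 to 13805 barcodes and 99772712 to 127796409 UMIs, and wild type 1 had the fewest and deepest cells. Pairs of libraries shared 26 to 60 cell barcodes. The class sizes varied by library, from 39 to 125 for tuft cells and from 55 (wild type 1) to 362 for Paneth cells. A lymphocyte-like cluster of 153 cells, with CD45 among the stained proteins, serves as background. Levels are counts per 1000000 UMIs (CPM), summed over a class in 1 library. A UMI marks 1 captured 3′ end, so levels do not scale with gene length, but how well each mRNA is captured was not calibrated. Classes were drawn from the same cells, so levels across classes are described without a test.

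Guanylin, in CPM, was foremost a goblet cell transcript, at several times the level of every other class in all 4 libraries. CPM is a share of UMIs and takes no account of UMIs per cell. Median depth was 22407.5 to 74233 UMIs in Paneth cells, against 8008 to 20619.5 in goblet cells. Paneth markers took 510695.0 to 571142.0 CPM of the Paneth class, and what this does to the peptide levels there was not tested. In goblet cells Guca2a stood at 3387 CPM in mutant 1 and 4476 CPM in mutant 2, against 4295 CPM in wild type 1 and 5195 CPM in wild type 2. The range of the 4 libraries did not overlap that of any other class. Next came Paneth cells with 823 and 814 CPM in mutants 1 and 2, against 1187 and 683 CPM in wild types 1 and 2. The goblet mean of 4338 ± 744 CPM was 4.95 times the Paneth mean of 877 ± 216 CPM (SD, n = 4 libraries), and 3.62 to 7.61 times within libraries. Enterocytes, the absorptive cells, had 204 and 291 CPM in mutants 1 and 2, against 195 and 361 CPM in wild types 1 and 2. Cycling crypt cells (361 ± 55.9 CPM), enterocytes (263 ± 78.6), enteroendocrine cells (190 ± 76.1) and tuft cells (96.9 ± 52.4) followed, and neighbours in that order overlapped over libraries. Stem cells were lowest at 40.2 ± 5.86 CPM, below the range of tuft cells.

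**Figure D1:**
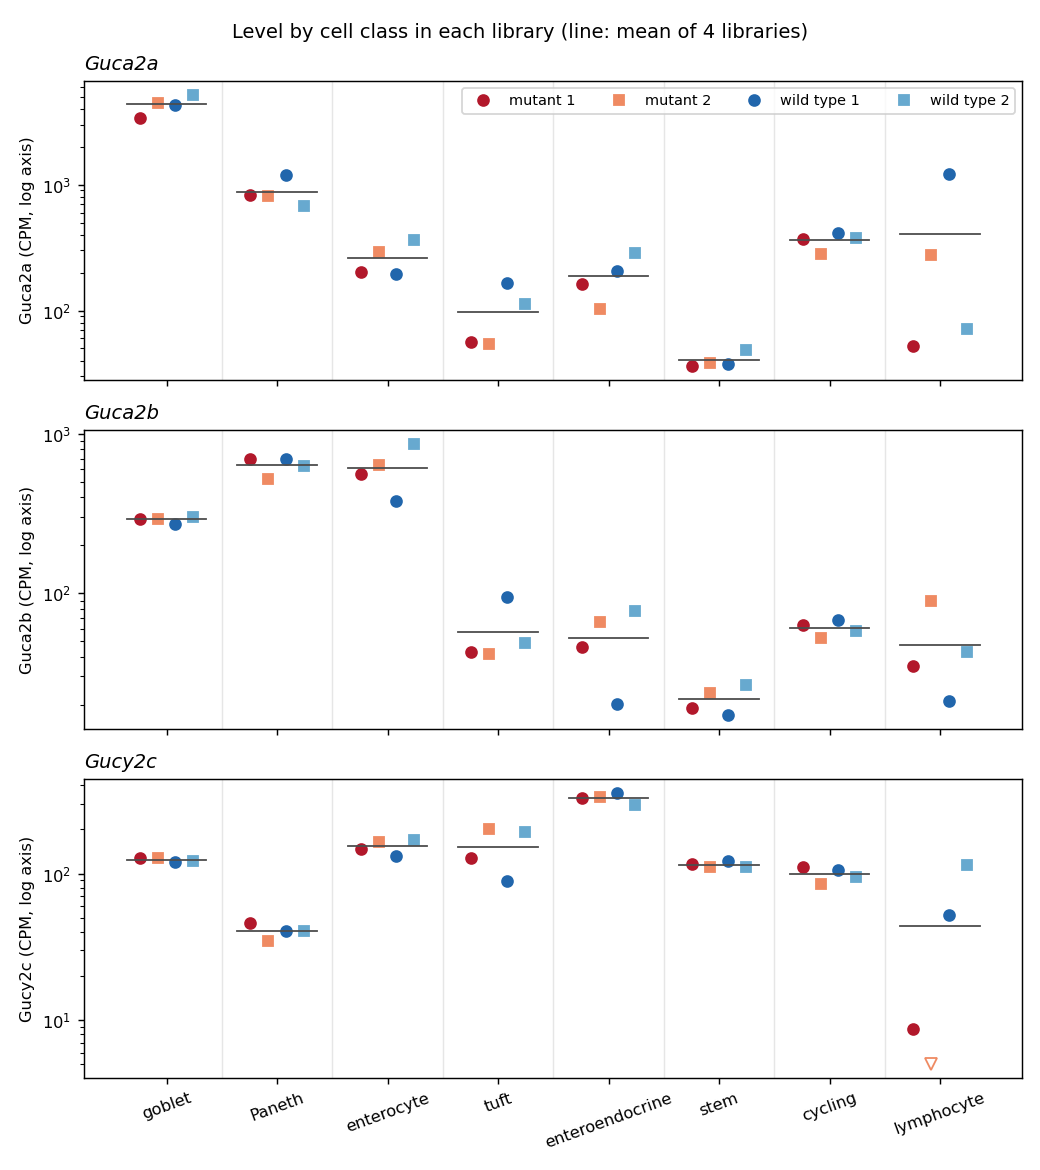
Level of each gene (CPM, log axis) in 8 cell classes, with 1 point per library, mutants to the left of wild types, and a line at the mean of 4 libraries. Guca2a is highest in goblet cells, Guca2b in Paneth cells and enterocytes, and Gucy2c in enteroendocrine cells, and the open triangle marks Gucy2c at 0 UMIs in lymphocytes of mutant 2.

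The lymphocyte cluster had 52.5 and 278 CPM of Guca2a in mutants 1 and 2, against 1221 and 71.2 CPM in wild types 1 and 2. A single cell held 215 of the 233 Guca2a UMIs of wild type 1 lymphocytes, with 144460.0 CPM of summed goblet markers, and without it the level was 113 CPM. In mutant 2 a single lymphocyte held 22 of 34 UMIs, with 757 CPM of goblet markers. Without the cell that held most Guca2a UMIs in each of the 4 libraries, the level was 44.2 to 115 CPM. Goblet cells had 3.08 to 3.59 Guca2a UMIs per 100 UMIs of goblet markers. Relative to that ratio, stem cells had 0.950 to 1.18 times as many and tuft cells 0.782 to 1.37 times, around the ratio of the whole goblet class. It was 1.26 to 2.68 times in Paneth cells and 2.31 to 7.93 times in enterocytes, above the ratio of the whole goblet class in every library. That class is a mix of unlike ratios. Goblet cluster 0 averaged 4821 CPM of Guca2a beside 92568 CPM of summed goblet markers, and cluster 3 averaged 1707 beside 326200 CPM. Other classes were not compared with each goblet cluster.

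Within goblet cells guanylin differed between the 2 clusters. Cluster 0, with Agr2, which helps fold mucins, and Spink4 among its leading genes, had 3746 and 4881 CPM in mutants 1 and 2, against 4861 and 5796 CPM in wild types 1 and 2. Cluster 3, with the mucus genes Fcgbp, Clca1, Zg16 and Muc2 among its leading genes, had 1231 and 1846 CPM in the mutants, against 1448 and 2303 CPM in the wild types. Guca2a was 2.52 to 3.36 times as high in cluster 0 as in cluster 3 within libraries, and the ranges did not overlap. Cells of cluster 3 were shallow, with a median depth of 0.372 of their library's. A cycling cluster with Atoh1 and Agr2 among its leading genes (cluster 2), Atoh1 being the factor that sets secretory fate, had 1278 and 2397 CPM in mutants, against 1553 and 2252 CPM in wild types. That was 41.8 to 70.1 times the level of the cycling cluster 6, which lacks those genes among its leading ones. Cluster 6 held 11 Guca2a UMIs in 19 cells of mutant 2, which gave the 70.1, and 37 UMIs in 29 cells of wild type 2.

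Uroguanylin, in CPM, was shared by Paneth cells and enterocytes. Median depth was 22407.5 to 74233 UMIs in Paneth cells and 3436 to 8430.5 in enterocytes, so a similar CPM is not a similar count per cell. In Paneth cells Guca2b stood at 698 CPM in mutant 1 and 522 CPM in mutant 2, against 702 CPM in wild type 1 and 626 CPM in wild type 2. Enterocytes had 563 and 637 CPM in mutants 1 and 2, against 378 and 869 CPM in wild types 1 and 2. The Paneth mean was 637 ± 83.9 CPM and the enterocyte mean 612 ± 203 CPM (SD, n = 4 libraries), and the 2 ranges overlapped. Goblet cells had 294 and 295 CPM in the mutants, against 274 and 301 CPM in the wild types, below both. The enterocyte mean was 2.10 times the goblet mean. Cycling, tuft, enteroendocrine and lymphocyte means of 47.1 to 60.2 CPM overlapped one another, and stem cells had 21.6 ± 4.25 CPM.

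Paneth cells held little of the enterocyte markers beside their uroguanylin. Per 100 UMIs of enterocyte markers, Paneth cells had 33.6 to 233 UMIs of Guca2b, against 1.52 to 2.63 in enterocytes, which is 16.2 to 117 times within libraries. The same ratio was 7.63 to 10.1 times in goblet cells and 0.794 to 1.12 times in stem cells. In Paneth cells the Guca2b UMIs were spread over cells, with a median cell at 5.12 to 6.91 UMIs per 10000 and 96.4% to 99.7% of cells with a UMI before any thinning.

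Among enterocyte clusters both peptides were low in cluster 13, with Reg1, Arg2 and Car4 among its leading genes, and high in cluster 18. In cluster 13 Guca2b had 122 and 107 CPM in mutants 1 and 2, against 88.9 and 147 CPM in wild types 1 and 2. In cluster 18, with the fatty acid and retinol binding proteins Fabp1 and Rbp2 and sucrase-isomaltase (Sis) among its leading genes, it had 1581 and 1069.9 CPM in the mutants, against 1003 and 1643 CPM in the wild types. Within libraries cluster 18 had 10.0 to 13.01 times as much Guca2b as cluster 13, and 3.56 to 8.35 times as much Guca2a. Cluster 11, with the upper intestine genes Lct and Slc2a2 among its leading genes, had 683 ± 108 CPM of Guca2b (SD, n = 4 libraries), below cluster 18 in every library (1.44 to 2.85 times). Cells of cluster 11 were shallow, with a median depth of 0.220 of their library's, against 1.05 in cluster 18 and 1.31 in cluster 13.

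Unnamed clusters carried both peptides too. Cluster 9, with Slc10a2 and Fabp6, bile acid transport genes of the ileum, among its leading genes, had 552 and 747 CPM of Guca2a in mutants, against 453 and 843 CPM in wild types. This was 1.75 to 4.63 times the Guca2a level of cluster 11, while Guca2b was 0.889 to 1.70 times. Cluster 16, with Fabp6, Gsdmc and Reg3 genes leading, had 298 and 469 CPM of Guca2a in mutants, against 323 and 804 CPM in wild types. This was 3.75 to 7.67 times cluster 13. Guca2b in cluster 16 was within 0.727 to 1.32 times that of cluster 13. The 2 clusters also differ in genes of the distal gut. Fabp6, Slc10a2, Slc51a, Slc51b and Cubn summed to 10890 CPM in cluster 16 and 572 CPM in cluster 13. In cluster 16 Guca2a was 6.14 to 18.2 times, relative to goblet markers, what it was in the whole goblet class. Cluster 10, led by the villus tip genes Slc28a2, Nt5e and Ada, ranged from 349 to 1289 CPM of Guca2b, from 0.605 to 1.56 times cluster 11. Clusters 9 and 10 were shallow like cluster 11, with a median depth of 0.256 and 0.201 of their library's.

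**Figure D2:**
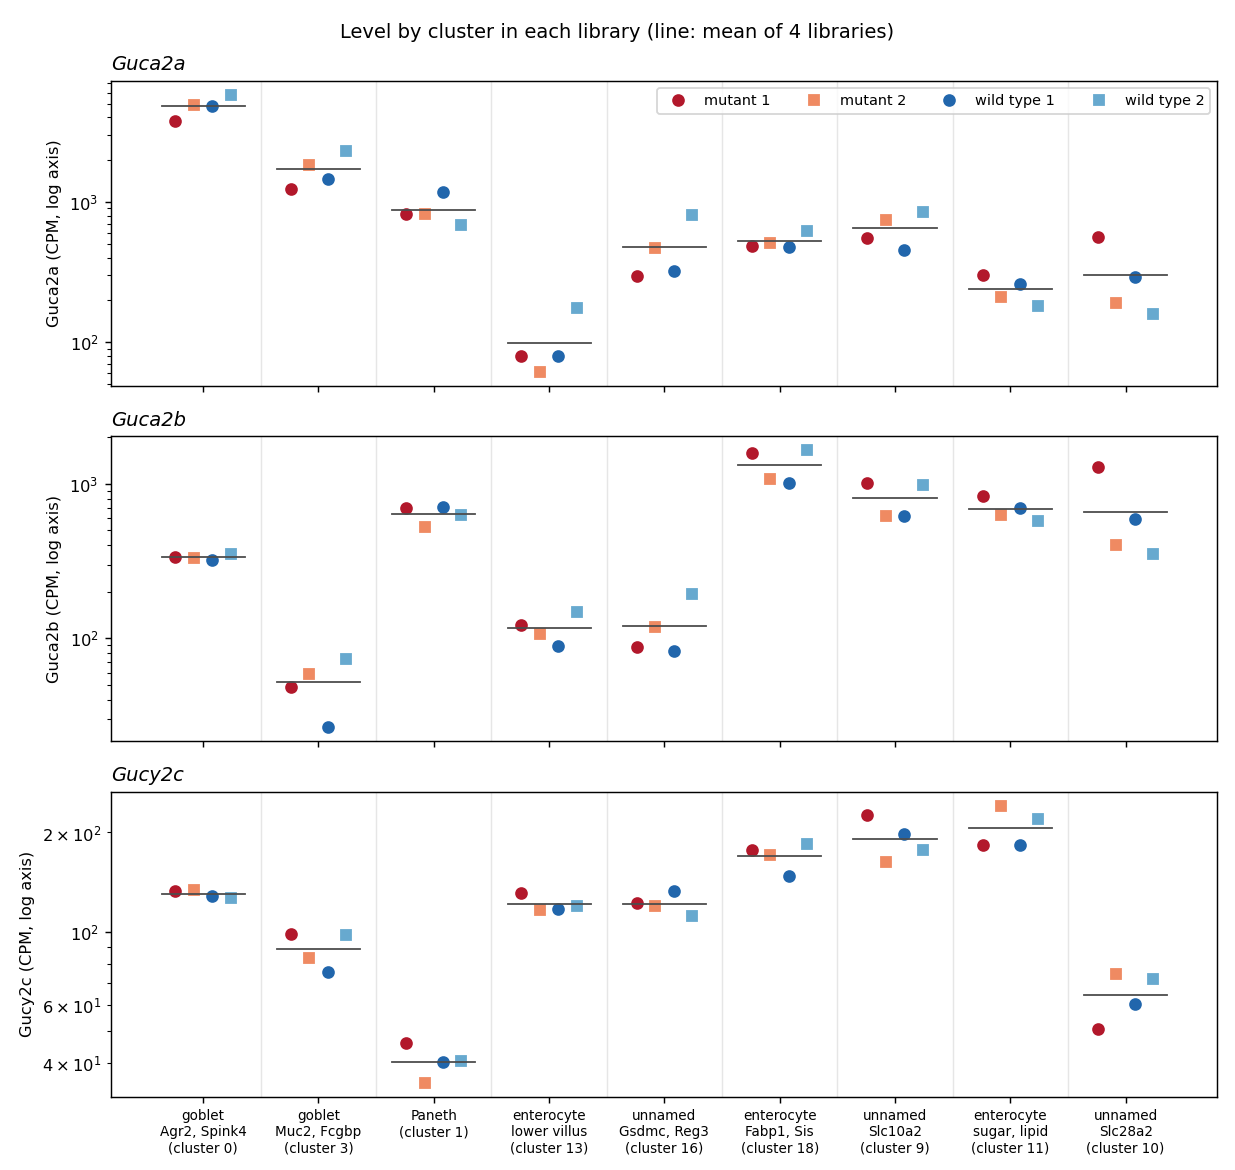
Level of each gene (CPM, log axis) in 9 clusters, with 1 point per library, mutants to the left of wild types, and a line at the mean of 4 libraries. Guca2a is higher in goblet cluster 0 than in cluster 3, both peptides are lowest among these enterocyte clusters in cluster 13 and high in cluster 18, and Gucy2c varies less, with its lowest values in Paneth cells and cluster 10.

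The balance of the 2 ligands, given as Guca2a UMIs in percent of Guca2a plus Guca2b UMIs, set goblet cells apart from enterocytes. In goblet cells guanylin made up 92.0% and 93.8% in mutants 1 and 2, against 94.0% and 94.5% in wild types 1 and 2. Paneth cells were near parity, with 54.1% and 60.9% in the mutants, against 62.9% and 52.2% in the wild types. Enterocytes leaned to uroguanylin, with guanylin at 26.6% and 31.3% in the mutants, against 34.1% and 29.4% in the wild types. Exact 95% binomial intervals, which cover counting error only, ran from 91.8% to 92.3% in goblet cells and from 25.6% to 27.5% in enterocytes of mutant 1. Tuft cells lay at 57.1% and 56.4% in the mutants, against 63.4% and 69.8% in the wild types, overlapping the Paneth range and the 61.6% to 68.9% of stem cells. Among enterocyte clusters, cluster 13 had 36.4% to 54.2%. Cluster 9 had 35.6% to 54.7%, above the 24.0% to 27.1% of cluster 11, and cluster 16 had 77.1% to 80.6%.

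The receptor gene had a flatter profile than its ligands. Gucy2c was highest in enteroendocrine cells, the hormone cells, with 328 and 334 CPM in mutants 1 and 2, against 355 and 294 CPM in wild types 1 and 2. The mean of 328 ± 25.6 CPM was 2.13 times that of enterocytes (SD, n = 4 libraries), with no overlap. The 2 enteroendocrine clusters differed, and cluster 14, with 427 of these cells, had 147 to 171 CPM, which overlaps enterocytes. Enterocytes had 147 and 165 CPM in the mutants, against 133 and 170 CPM in the wild types. Tuft cells had 127 and 202 CPM in the mutants, against 88.8 and 193 CPM in the wild types. Goblet cells had 128 and 127 CPM in the mutants, against 120 and 121 CPM in the wild types. Enterocytes, tuft, goblet, stem (114 ± 5.25 CPM) and cycling cells (99.2 ± 12.1 CPM) overlapped their neighbours in this order. Paneth cells had the lowest mean, with 45.9 and 34.8 CPM in the mutants, against 40.4 and 40.5 CPM in the wild types, and goblet cells had 2.79 to 3.66 times as much. Lymphocytes, the background, had 0 to 114 CPM from at most 10 UMIs a library, a range that holds the Paneth values. Paneth markers took 510695.0 to 571142.0 CPM of the Paneth class, so other genes share a smaller part of the UMIs there, and its part in the low Gucy2c value was not tested. Before thinning, 72.1% of Paneth cells on average had a Gucy2c UMI, at a median depth of 22407.5 to 74233 UMIs per cell.

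Shares of cells with a UMI were compared after thinning each cell to 3000 UMIs, which left out 2451 of 6720 enterocytes, 521 goblet, 22 Paneth and 31 tuft cells as too shallow. Guca2a was then found in 89.2% and 89.3% of goblet cells of mutants 1 and 2, against 83.4% and 87.9% in wild types 1 and 2. In Paneth cells the Guca2a share was 73.0% to 88.7%, in enterocytes 31.9% to 39.7% and in tuft cells 11.9% to 22.9%. For Guca2b it was 80.5% to 82.3% in Paneth cells, 43.9% to 66.98% in enterocytes, 31.4% to 41.0% in goblet cells and 8.47% to 22.9% in tuft cells. Gucy2c was found in 36.2% to 42.6% of enterocytes, 22.03% to 47.9% of tuft cells, 26.2% to 31.6% of goblet cells and 11.1% to 18.9% of Paneth cells. Of the 153 lymphocytes 49 were deep enough, and their shares were 0% to 27.3% for Guca2a, 0% to 12.5% for Guca2b and 0% to 12.5% for Gucy2c. In tuft cells the Guca2a share is not above the lymphocyte range and is not read as expression, the Guca2b share overlaps that range, and the Gucy2c share is above it in every library, though the lymphocyte shares rest on 4 to 26 cells a library. In lymphocytes of mutant 2 no Gucy2c UMI was found in 37 cells, which allows a share of cells with a UMI of up to 8.11%. Without thinning, which favours deep classes, the mean shares were 89.2% for Guca2a in goblet cells, 98.0% for Guca2b in Paneth cells and 64.7% for Gucy2c in tuft cells.

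**Figure D3:**
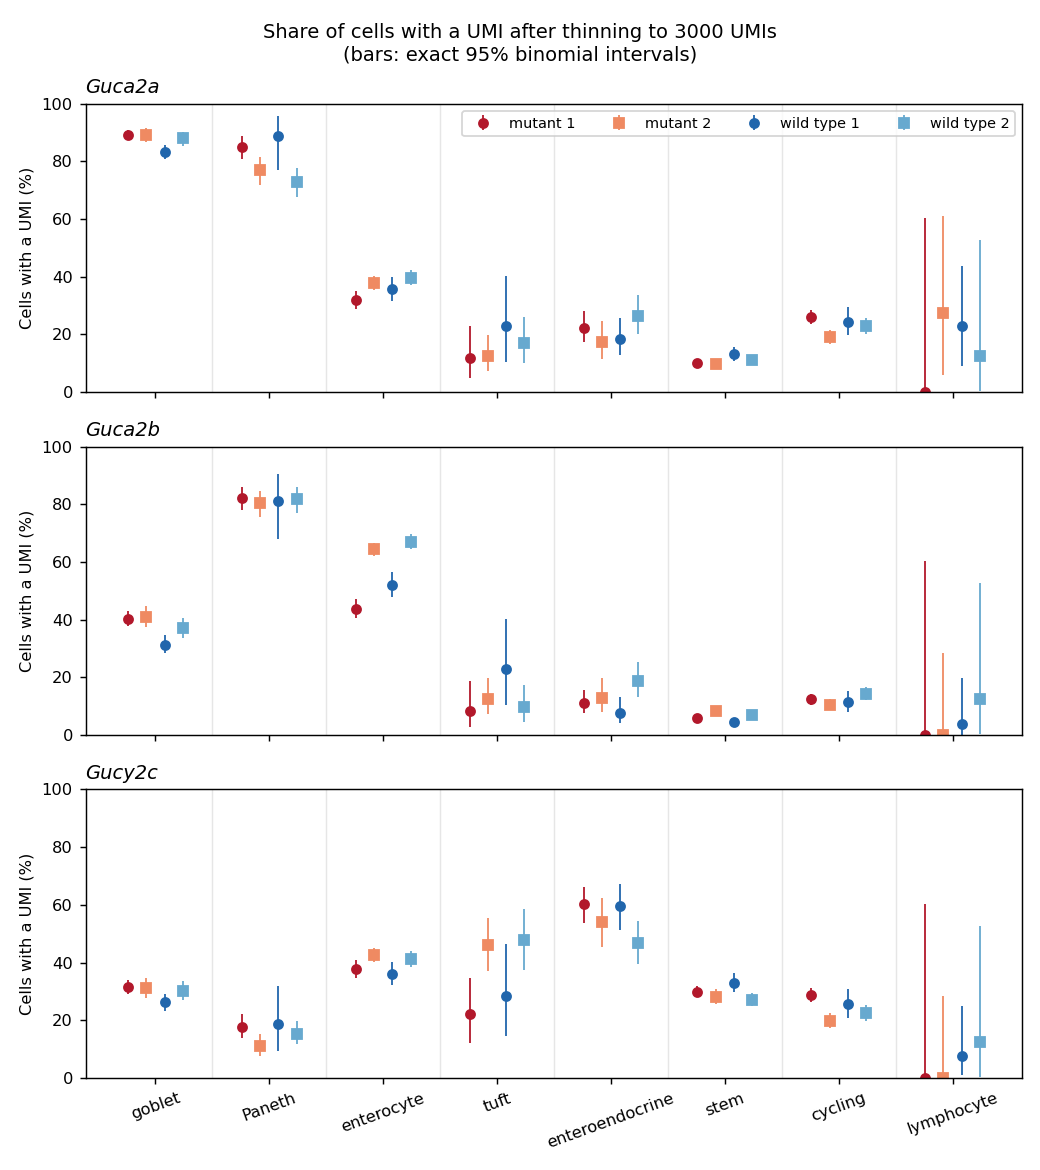
Share of cells with at least 1 UMI (percent) after thinning to 3000 UMIs per cell, by class, with 1 point per library, mutants to the left of wild types, and exact 95% binomial bars that cover counting error only. Guca2a reaches 83.4% to 89.3% of goblet cells and Guca2b 80.5% to 82.3% of Paneth cells, while tuft cells are low for both peptides.

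Uroguanylin was found more often in goblet cells with guanylin than in those without. Among thinned goblet cells, Guca2b was found in 43.4% and 43.1% of cells with Guca2a in mutants 1 and 2, against 35.6% and 39.6% in wild types 1 and 2. Among goblet cells without Guca2a it was 15.3% and 23.7% in the mutants, against 10.1% and 18.5% in the wild types. In enterocytes Guca2b was found in 69.0% and 80.0% of cells with Guca2a in the mutants and in 71.7% and 79.3% in the wild types, against 32.1% to 58.9% of cells without. That class pools clusters with unlike shares of both genes. Mean thinned shares of Guca2a and Guca2b were 18.3% and 23.4% in cluster 13. They were 55.7% and 81.96% in cluster 18, and 44.6% and 80.6% in cluster 11. The part of this pooling in the enterocyte difference was not tested. Within goblet cluster 0 the shares were 45.05% to 49.6% with Guca2a and 22.2% to 34.5% without, and within cluster 3 they were 7.53% to 13.4% and 5.98% to 17.0%. In Paneth cells, a single cluster, the share with both was 58.8% to 70.9%, against 59.6% to 71.9% for the product of the 2 shares. Gucy2c was found in 28.0% to 33.3% of goblet cells with Guca2b and in 25.4% to 31.5% of those without.

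The 5 genes whose log2(CPM + 1) followed each member most closely over 8 classes were taken among 6449 genes. For Guca2a they were Edem2 (r = 0.970), Serp1 (0.955), Kdelr3 (0.950), Tram1 (0.946) and Muc2 (0.943). Muc2, the main goblet mucin, averaged 9973 CPM in goblet cells and 918 CPM in Paneth cells. For Guca2b they were Apoc2 (0.924), P4hb (0.924), Prxl2a (0.837), Hpgd (0.810) and Eepd1 (0.807), and Apoc2, an apolipoprotein, had 567 CPM in enterocytes, 187 in Paneth and 60.4 in goblet cells. For Gucy2c they were Pard3 (0.987), Malrd1 (0.985), Rnpepl1 (0.985), Reps2 (0.981) and Fam135a (0.978). These r describe 8 classes that share libraries, and carry no test.

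The other genes of the pathway were taken from 5 lists with 50 genes, all in the tables. Among goblet, Paneth, enterocyte and tuft cells, the 4 classes compared here, enterocytes had the highest mean of many of the ion transport and cyclic GMP genes that act after the receptor. Of the 28 genes in the lists of ion transport, kinases and scaffolds, and phosphodiesterases and cyclic GMP export, 22 had a mean of at least 10 CPM in goblet, Paneth, enterocyte or tuft cells. In 13 of these 22 the mean was the highest of the 4 classes in enterocytes, and in 12 of the 13 without overlap over libraries. In the other 9 it was highest in tuft cells, in 5 of them without overlap, and in 0 in goblet or Paneth cells. The share of all genes that are highest in enterocytes was not counted, so these counts are not read as particular to the pathway. Slc9a3 had 158 to 173 CPM in enterocytes and at most 7.42 CPM in goblet, Paneth and tuft cells. Prkg2 had 102 to 147 CPM in enterocytes and at most 17.7 CPM in the other 3 classes. The chloride and bicarbonate exchangers Slc26a3 and Slc26a6 averaged 158 and 106 CPM in enterocytes, the bicarbonate cotransporter Slc4a4 263 CPM and the exchanger Slc9a2 75.3 CPM. The scaffolds Slc9a3r1 and Pdzk1 averaged 497 and 89.2 CPM there. Cftr averaged 120 CPM in enterocytes, 66.7 in tuft, 28.4 in Paneth and 23.7 in goblet cells, but 427 CPM in stem cells.

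Phosphodiesterases, which break down cyclic nucleotides, divided between classes. Pde5a, specific for cyclic GMP, averaged 162 CPM in enterocytes, 83.3 in tuft, 42.5 in goblet and 21.3 in Paneth cells. Pde9a averaged 127 CPM in enterocytes and Pde3a 210 CPM, and the exporter Abcg2 194 CPM. Of the 4 classes, tuft cells had the highest means of Pde2a (105 CPM, against 54.0 in goblet cells and 0.85 in enterocytes), Pde4d (1195 CPM), Pde3b (46.0 CPM), the exporter Abcc4 (20.6 CPM) and the potassium channel Kcnq1 (258 CPM). Kcne3, a subunit that joins Kcnq1, averaged 34.1 CPM in tuft and 32.6 CPM in goblet cells. Both channel genes were higher outside the 4 classes, with Kcnq1 at 301 CPM in stem cells, and Kcne3 at 160 CPM in stem and 106 CPM in cycling cells. Enteroendocrine cells had more Pde4d (1316 CPM), Pde3b (68.6 CPM) and Abcc4 (78.7 CPM) than tuft cells, and lymphocytes 593 CPM of Pde3b. The cyclic AMP kinase subunits Prkaca, Prkar1a and Prkar2a averaged 26.2, 115 and 200 CPM in tuft cells, and 23.1, 75.5 and 182 CPM in enterocytes. Of the other guanylyl cyclases, Gucy2d and Gucy2e were at 0 in all 4 classes and Gucy1a2 averaged 8.51 CPM in tuft cells.

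Genotype was then compared class by class, with UMIs summed per library and tested with edgeR's quasi-likelihood test over all genes that pass its filter. The question was whether the mitochondrial tRNA mutation goes with a change of the peptides or the receptor. No member passed an adjusted p under 0.05 in any of the 5 groups of cells. In goblet cells 0 of 12446 genes were called (0%, 168 with an unadjusted p under 0.05, and 0 by DESeq2), and in tuft cells 0 of 8446 (0%, 78, and 0 by DESeq2). In enterocytes 0 of 12262 were called (0%, 55, and 0 by DESeq2), in Paneth cells 0 of 11128 (0%, 102, and 0 by DESeq2) and in all epithelial cells 0 of 16740 (0%, 110, and 7 or 0.0418% by DESeq2). In fits that include the set, edgeR called 0.0803% in goblet cells, 0% in tuft cells, 0.285% in enterocytes, 0.018% in Paneth cells and 0.131% in all epithelial cells, with 0 members among them.

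Goblet guanylin was lower in the mutant of both sets, and did not pass the test. Its log2 ratio of mutant to wild type was -0.26 (SE 0.24, adjusted p = 1.00 in edgeR). Within set A it was -0.34 (95% counting interval -0.36 to -0.33) and within set B -0.21 (-0.23 to -0.19), but mutant 2 lay above wild type 1, so the groups overlap. Both goblet clusters had the same sign in both sets, with -0.38 and -0.25 in cluster 0 and -0.23 and -0.32 in cluster 3, in sets A and B. The share of thinned goblet cells with a Guca2a UMI went the other way. It was 89.2% and 89.3% in mutants 1 and 2, against 83.4% and 87.9% in wild types 1 and 2. Guca2b in goblet cells had a log2 ratio of 0.04 (SE 0.18, 0.10 (set A) and -0.03 (set B)), and Gucy2c 0.09 (SE 0.17, 0.09 and 0.07). The adjusted p was 1.00 in edgeR for both.

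Tuft guanylin was lower in both mutant libraries than in both wild-type libraries, on few molecules. Tuft cells held 32 and 66 Guca2a UMIs in mutants 1 and 2, against 109 and 104 UMIs in wild types 1 and 2. In CPM this was 56.6 and 53.9 in the mutants, against 164 and 113 in the wild types, and the groups do not overlap. The log2 ratio was -1.26 (SE 0.29, adjusted p = 1.00 in edgeR). By set, A gave -1.53 and B gave -1.07. Fitted with a set term, edgeR gave an adjusted p of 0.132. A single cell held 61 of the 109 UMIs in wild type 1 and 40 of the 104 in wild type 2, against 5 of 32 in mutant 1 and 14 of 66 in mutant 2. Leaving out that 1 cell of each library, the levels were 48.4 and 42.7 CPM in the mutants, against 90.4 and 70.9 CPM in the wild types, and the log2 ratios -0.90 (set A) and -0.73 (set B). Goblet markers in tuft cells summed to 2351 and 1553 CPM in mutants 1 and 2, against 3664 and 2401 CPM in wild types 1 and 2, and so moved the same way, and their part in the result was not tested. The tuft share of cells with Guca2a was not above that of lymphocytes. In 3 other classes, for which no fit was run, the log2 ratios of Guca2a were also below 0 in both sets, with -0.35 (A) and -1.45 (B) in enteroendocrine cells, -0.16 and -0.41 in cycling cells, and -0.07 and -0.36 in stem cells, where the counting interval of set A includes 0. A single enteroendocrine cell of wild type 1, with 38403 CPM of goblet markers, held 222 of 549 Guca2a UMIs. Leaving out the cell with most Guca2a UMIs in each library, the enteroendocrine ratios were 0.094 (A) and -1.46 (B). The cycling and stem ratios then stayed below 0 in both sets. Cluster 2 held most cycling Guca2a UMIs, with 3965 of 4756 in mutant 2 and 5657 of 6516 in wild type 2. Within cluster 2 the ratios were -0.28 (A) and 0.09 (B), and the counting interval of set B was 0.031 to 0.15. Cluster 2 made up 82 of 1090 cycling cells in mutant 2 and 124 of 917 in wild type 2. The part of this mix in the cycling ratio was not tested.

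Tuft uroguanylin and receptor were less separated. Guca2b had 42.5 and 41.7 CPM in mutants 1 and 2, against 94.8 and 49.0 CPM in wild types 1 and 2 (log2 ratio -0.69, SE 0.37, adjusted p = 1.00 in edgeR), from 24 to 63 UMIs per library. By set, it was -1.16 (A) and -0.23 (B). Without the 1 cell with most Guca2b UMIs in each library, the levels were 33.9 and 38.6 CPM in the mutants, against 69.7 and 37.2 CPM in the wild types, and set B gave 0.055. Gucy2c had a log2 ratio of 0.27 (SE 0.44, adjusted p = 1.00 in edgeR, 0.52 (set A) and 0.07 (set B)). Both libraries of set B lay above both of set A.

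In Paneth cells Guca2a, and in enterocytes Guca2b, had opposite signs in the 2 sets, each beyond its counting interval. Paneth Guca2a had a log2 ratio of -0.14 (SE 0.37, adjusted p = 1.00 in edgeR), made of -0.53 in set A (95% counting interval -0.58 to -0.47) and 0.25 in set B (0.21 to 0.29). Set A rests on the 55 Paneth cells of wild type 1. Paneth Guca2b had -0.12 (SE 0.28, -0.01 and -0.26 in sets A and B) and Paneth Gucy2c -0.01 (SE 0.20, 0.18 and -0.22), each with an adjusted p of 1.00 in edgeR. Enterocyte Guca2b had -0.02 (SE 0.45, adjusted p = 1.00 in edgeR), made of 0.57 (set A) and -0.45 (set B), and enterocyte Guca2a had -0.12 (SE 0.41, 0.06 and -0.31). For enterocyte Gucy2c it was 0.09 (SE 0.29, 0.15 and -0.04). The enterocyte class is a mix whose parts differ by library. Cluster 18, rich in Guca2b, held 352 cells of 1354 in mutant 1 and 670 of 2355 in mutant 2, against 136 of 772 in wild type 1 and 516 of 2239 in wild type 2. Within cluster 18 Guca2b had 0.66 (set A) and -0.62 (set B), and within cluster 11 it had 0.25 and 0.13.

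One call appeared within enterocytes. In cluster 13 alone, in a fit with the set as a term that was added after the data were seen, Guca2a fell by 0.70 on the log2 scale (SE 0.18, adjusted p = 0.0354 in edgeR), among 43 genes called of 11151 (0.386%). Its levels there were 79.4 and 61.2 CPM in mutants 1 and 2, against 79.4 and 174 CPM in wild types 1 and 2. Within set A the log2 ratio was -0.00017 and within set B -1.51, so the call rests on wild type 2. Without the set term edgeR gave -0.81 (SE 0.36, adjusted p = 1.00, 0 of 11151 called or 0%, 72 with an unadjusted p under 0.05). Goblet markers in cluster 13 had 14722 and 5996 UMIs in mutants 1 and 2, against 6839 and 17866 UMIs in wild types 1 and 2. Per 100 of these UMIs there were 4.10 and 7.04 Guca2a UMIs in the mutants, against 8.26 and 5.49 in the wild types. In set B goblet markers thus moved the same way as Guca2a, and their part in the call was not tested.

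**Figure D4:**
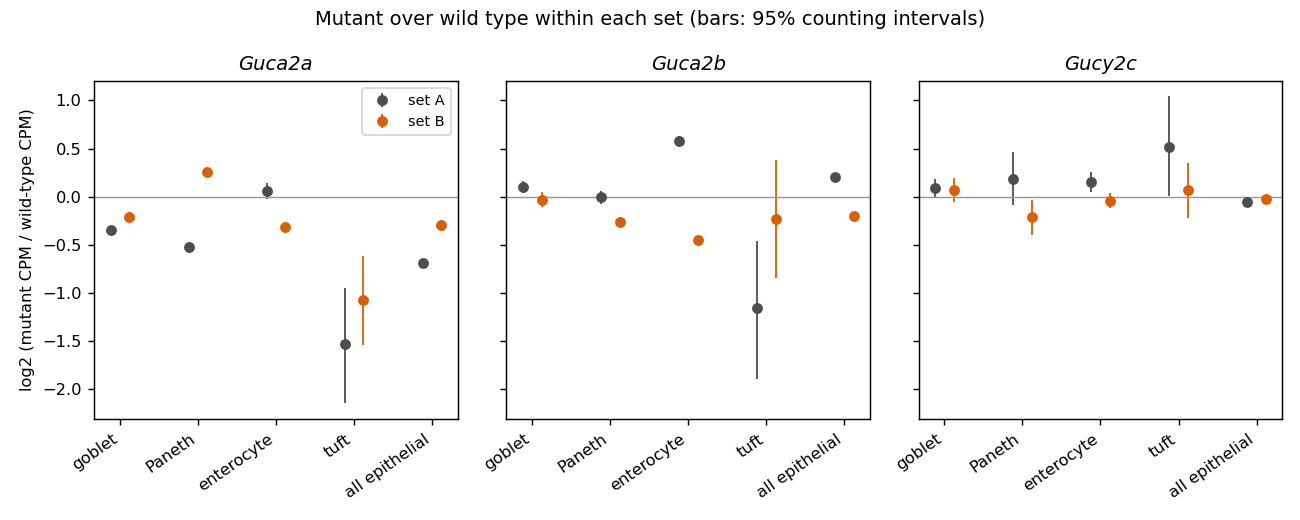
Log2 ratio of mutant to wild type CPM within set A (grey) and set B (orange) for the 3 genes in 4 classes and in all epithelial cells, with 95% intervals that cover counting error only. Guca2a is below 0 in both sets in goblet and tuft cells and in all epithelial cells (other classes, such as enteroendocrine cells, are not drawn), and the sets lie on opposite sides of 0 for Guca2a in Paneth cells and Guca2b in enterocytes.

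Fewer cells of a type and less RNA per cell cannot be told apart in summed cells. In all epithelial cells together Guca2a had 641 and 688 CPM in mutants 1 and 2, against 1032 and 843 CPM in wild types 1 and 2, and the groups do not overlap. The log2 ratio was -0.37 (SE 0.20, adjusted p = 1.00 in edgeR), and the sets gave -0.69 (A) and -0.29 (B). Goblet cells made up 17.0% and 9.496% of cells in the mutants, against 22.3% and 10.9% in the wild types, so the goblet share moved the same way, and its part was not tested. Guca2b had a log2 ratio of 0.07 (SE 0.41, 0.20 (set A) and -0.20 (set B)) and Gucy2c 0.08 (SE 0.15, -0.06 and -0.02), both with an adjusted p of 1.00 in edgeR. Without TMM scaling both turned direction, to -0.044 (Guca2b) and -0.043 (Gucy2c). Of the 50 other pathway genes, 28 to 40 passed the filter per group of cells, and 0 were called up and 0 down in each of the 5 groups, with 0 at an unadjusted p under 0.05 in edgeR and by DESeq2. Their median log2 ratio was 0.023 in goblet cells (all genes tested -0.0025), -0.045 in tuft cells (-0.0012), -0.0063 in enterocytes (-0.018), 0.025 in Paneth cells (-0.0051) and -0.015 in all epithelial cells (-0.0031).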

How the data were processed

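The files hold UMI counts per gene and barcode, deposited by the authors without normalisation. Libraries were made with the 10x Chromium 3′ kit, per the labels' protocols. Cell Ranger was 7.0.0 for set A and 7.1.0 for set B per the file headers, and the genome build was mm10 per the submitters' processing notes. The sources used here do not give the intron setting or the cell calling. Cells were kept from 500 genes and 1000 UMIs up, with a mitochondrial share below 30%. The highest scrublet scores, at 0.8% of barcodes per 1000 barcodes, were removed as doublets (212 to 1220 per library). Cells were scaled to 10000 UMIs, and 2000 variable genes without the 3 members, 50 principal components, 15 neighbours and Leiden resolution 1.0 gave the clusters (scanpy 1.11.5, igraph 0.11.9). Genes were not centred within libraries, since centring gave clusters of mostly 1 library. A name needed 3 markers among the 50 leading genes by Welch's statistic (as a rank, not a test) and the 50 by fold, more than any other list, no other list ahead among the 10 leading genes by fold, under 90% of cells from 1 library, and, at under 1/3 of the library's median depth, an own marker among those 10.

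Summed counts were tested with edgeR 4.0.16 (R 4.3.3, quasi-likelihood, TMM, filterByExpr, Benjamini-Hochberg over all genes tested, threshold 0.05), on 2 mutant and 2 wild-type libraries, without a set term (2 residual degrees of freedom). A set term (1 residual degree of freedom) and DESeq2 1.42.0 were alternatives. Libraries carry no replicate number in the labels, and the set was taken from titles and headers. The summed UMIs per library were 8088443 to 17015207 in goblet, 3912785 to 14694527 in Paneth, 11081766 to 19169186 in enterocyte and 565306 to 1224339 in tuft cells. Intervals of shares are exact 95% Clopper-Pearson intervals, and the limit for a count of 0 is 3 counts over the number of cells. Both cover counting error only. Named genes were the 3 members, pathway genes of the first 3 lists with at least 10 CPM in 1 of 4 classes, and the 5 genes most like each member among genes of at least 50 CPM in 1 class. Members and lists were chosen with earlier results of these data known. The fits were also run on simulated counts with a fixed dispersion and no difference between sets, which does not show how they behave on these libraries.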

Additional observations from a re-analysis of the deposited data

Results flagged for a closer look

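In goblet, Paneth, enterocyte, tuft and all epithelial cells, 3 values had opposite signs in the 2 sets with both 95% counting intervals clear of 0, each set being 1 mutant against 1 wild-type library, and the difference between sets was not tested. Other values had opposite signs with at least 1 interval that includes 0, such as Gucy2c in Paneth cells. As log2 of mutant over wild type, Guca2a in Paneth cells had -0.53 (set A) and 0.25 (set B). Guca2b in enterocytes had 0.57 (set A) and -0.45 (set B). Guca2b in all epithelial cells had 0.20 (set A) and -0.20 (set B).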

How the results depend on the processing

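Fits left 2 residual degrees of freedom, tuft cells held few UMIs, and the set coincides with the Cell Ranger version. Of 183 values from alternatives other than leaving out a library, 162 kept direction and side of the threshold, 20 turned direction and 1 passed the threshold; the cause was not tested. With the set as a replicate block in cluster 13, chosen after seeing the data, Guca2a was -0.70, 1 member was called, and Guca2b was 0.049. For Guca2b in enterocytes the log2 ratio was 0.11 with the replicate block (also in DESeq2), 0.058 and 0.14 at mitochondrial limits of 15% and 50%, 0.030 without doublet removal, 0.071 with cells named by highest marker level, and 0.17 and 0.084 at resolutions 0.5 and 2.0. Guca2a in enterocytes was 0.12 at resolution 0.5. Guca2b in goblet cells was -0.015 with highest marker level and -0.0060 at resolution 2.0. Guca2a in Paneth cells was 0.059 and 0.023 at limits of 15% and 50%, 0.064 at resolution 0.5 and 0.063 with genes centred within libraries. Gucy2c in Paneth cells was 0.0029 without the low-count filter and 0.045 without doublet removal. Without TMM, which moved the median of all genes to -0.12, all epithelial Guca2b was -0.044 and Gucy2c -0.043. The block changed no other call on a member.

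Leaving out 1 library at a time gave these log2 ranges for Guca2a, Guca2b and Gucy2c: -0.51 to -0.23, -0.36 to 0.70 and 0.042 to 0.11 in all epithelial cells, -0.52 to 0.47, -0.52 to 0.79 and -0.11 to 0.36 in enterocytes, -0.52 to -0.044, -0.057 to 0.13 and 0.048 to 0.12 in goblet cells, -0.45 to 0.23, -0.21 to -0.049 and -0.11 to 0.076 in Paneth cells, and -1.44 to -1.02, -1.04 to -0.20 and -0.19 to 1.03 in tuft cells. The smallest adjusted p in edgeR was 0.921. The lone library of a group is assumed to vary like the other group.

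Mean levels in CPM moved as follows. Without doublet removal Guca2a was 3217 in goblet and 651 in Paneth cells, and Guca2b 262 in goblet cells. As a mean over cells Guca2a was 3537 in goblet and 1375 in Paneth cells, Guca2b 249.96 and 735, and Gucy2c 53.5 in Paneth cells and 177 in enterocytes. With highest marker level Guca2b was 276 in goblet cells, Gucy2c 49.7 in Paneth cells, and Guca2a 348 in enterocytes and 212 in tuft cells. At a mitochondrial limit of 15% Guca2a was 659 in Paneth cells, and at 50% Guca2b was 309 in goblet cells, and Guca2a 393 and Gucy2c 176 in enterocytes. Shares without thinning were 59.1% (Guca2b) and 64.3% (Gucy2c) in goblet cells, 99.4%, 98.0% and 72.1% (Guca2a, Guca2b, Gucy2c) in Paneth cells, 52.4%, 68.3% and 59.2% in enterocytes and 34.9%, 29.7% and 64.7% in tuft cells. Thinned to 1500 UMIs they were 78.4%, 24.4% and 16.6% in goblet cells, 63.0%, 55.9% and 9.44% in Paneth cells, 24.2%, 45.2% and 22.9% in enterocytes, and 10.7% (Guca2a) and 20.2% (Gucy2c) in tuft cells.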

Other observations

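Gucy2c differed between the 2 enteroendocrine clusters. Cluster 22, with the hormone genes Gip, Nts, Sst, Gcg and Cck, had 475 and 495 CPM in mutants 1 and 2, against 523 and 502 CPM in wild types 1 and 2. Cluster 14, with Chga, Tph1 and Tac1, had 171 and 163 CPM in the mutants, against 147 and 155 CPM in the wild types. The ratio of cluster 22 to cluster 14 was 2.78 to 3.55 within libraries, and the ranges did not overlap. The unnamed cluster 19, of 132 cells, had 175 and 285 CPM of Gucy2c in the mutants, against 314 and 277 CPM in the wild types.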
